A study of Mus musculus with 16 samples.

Results

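The cornified envelope genes of the mouse were followed across periodontal ligament RNA from 4 groups of mice. The set was defined by gene symbol: every Lce and Sprr gene with a family number, together with Lor, Ivl, Flg, Flg2, Hrnr, Rptn, Crnn, Cdsn, Tgm1, Tgm3, Cnfn and Calm4. It holds 50 of the 55359 genes in the deposited count table. It comprises 14 Lce1, 6 Lce3 and 1 Lce6 gene, 13 Sprr2 genes, 4 genes of the Sprr1, Sprr3 and Sprr4 families, 5 S100-fused proteins, 2 transglutaminases and 5 other single genes. Of the 50, 49 had at least 1 count, 22 had a count in all 16 libraries, and 45 passed the filter on low counts and were tested. Lce6a had no count in any library, and Flg2, Lce1m, Sprr4 and Sprr2c-ps were too low to test.

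All mice were 9-week-old wild-type C57BL/6J males. The control mice were untreated. The ligature group carried a silk thread tied around the left upper second molar, a standard way of producing periodontitis. The trauma group had its bite raised with composite resin on the chewing side of that tooth, which overloads it (traumatic occlusion). The fourth group had both procedures. Each group had 4 libraries. Neither the time between the procedure and sampling nor the number of mice behind a library is given in the sources used here, so the p-values measure the spread between libraries, which may be technical in part. The labels name the tissue periodontal ligament, while the series title speaks of bone.

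The cornified envelope is the tough protein shell that replaces the plasma membrane of keratinocytes in the uppermost layers of epidermis and of keratinized oral epithelium such as the gingiva. Transglutaminases weld precursor proteins together beneath the membrane: involucrin and the small proline-rich (SPRR) proteins early, then loricrin and the late cornified envelope (LCE) proteins, while filaggrin-type S100-fused proteins bundle keratin and join the shell. Most of the genes lie side by side in the epidermal differentiation complex, and Sprr2 genes are also known to rise in stressed or wounded epithelia. The ligament itself is a connective tissue that borders on gingival epithelium.

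Of the 50 genes, 45 lie on chromosome 3, from Lor at one end to Rptn 1315 kb away, with the Sprr2, Sprr1, Lce1, Lce3 and S100-fused genes in successive blocks, apart from Lce1m, which lies beyond the Lce3 genes at 936.7 kb. The other 5, Calm4, Cdsn, Cnfn, Tgm1 and Tgm3, lie on 5 other chromosomes. To show how differently the members begin, the 200 bases upstream of the annotated start are printed for 7 genes on which the results turn: Sprr2a1 and Sprr2i, which were called higher with the ligature, Sprr2d, the most abundant member, and Lor, Rptn, Lce1c and Lce3f, which fell. The sequences are from RefSeq (build GRCm38.p6) and read 5′ to 3′ on the gene's strand, the last base being position -1. Capitals mark matches to the AP-1 motif TGANTCA and to the TATA box TATAAA.
Sprr2a1, chr3:92215635-92215834, plus strand: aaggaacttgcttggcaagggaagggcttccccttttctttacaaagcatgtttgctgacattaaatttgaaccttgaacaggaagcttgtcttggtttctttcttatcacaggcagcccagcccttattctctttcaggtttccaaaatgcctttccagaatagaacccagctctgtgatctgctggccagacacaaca
Sprr2d, chr3:92338940-92339139, plus strand: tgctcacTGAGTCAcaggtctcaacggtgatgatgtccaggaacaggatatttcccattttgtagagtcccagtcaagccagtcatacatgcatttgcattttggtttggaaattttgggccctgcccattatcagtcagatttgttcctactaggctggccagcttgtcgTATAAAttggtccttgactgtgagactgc
Sprr2i, chr3:92407791-92407990, plus strand: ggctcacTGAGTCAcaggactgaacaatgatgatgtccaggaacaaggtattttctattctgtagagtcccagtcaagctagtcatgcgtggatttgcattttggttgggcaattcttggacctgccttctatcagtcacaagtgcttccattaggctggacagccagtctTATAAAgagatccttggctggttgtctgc
Lor, chr3:92083143-92083342, minus strand: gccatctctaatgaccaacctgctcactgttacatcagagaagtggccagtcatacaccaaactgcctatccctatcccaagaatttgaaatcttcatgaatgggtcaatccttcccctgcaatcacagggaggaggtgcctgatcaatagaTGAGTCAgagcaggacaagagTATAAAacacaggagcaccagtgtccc
Rptn, chr3:93393499-93393698, plus strand: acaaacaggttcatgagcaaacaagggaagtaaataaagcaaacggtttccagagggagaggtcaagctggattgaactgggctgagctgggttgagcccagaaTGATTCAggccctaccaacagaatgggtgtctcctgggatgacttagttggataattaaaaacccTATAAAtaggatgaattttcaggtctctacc
Lce1c, chr3:92679047-92679246, plus strand: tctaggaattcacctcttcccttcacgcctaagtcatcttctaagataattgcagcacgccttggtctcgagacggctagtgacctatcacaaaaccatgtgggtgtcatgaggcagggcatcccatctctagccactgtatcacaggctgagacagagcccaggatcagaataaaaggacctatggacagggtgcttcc
Lce3f, chr3:92992017-92992216, plus strand: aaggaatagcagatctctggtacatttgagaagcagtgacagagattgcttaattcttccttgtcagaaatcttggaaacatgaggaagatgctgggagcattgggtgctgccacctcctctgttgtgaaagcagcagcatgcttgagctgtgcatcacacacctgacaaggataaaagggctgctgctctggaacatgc

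Sprr2d and Sprr2i share the AP-1 match at position -193 and the TATA box at position -29, and their 250 upstream bases were 69.6% identical. Lor and Rptn carry both motifs too, with AP-1 at positions -48 and -96. Over 250 upstream bases and both strands, TGANTCA was found in 15 of the 46 member promoters in the table (32.6%), against 6.87% of 27025 genes. By family it was found in 7 of 10 Sprr2 promoters, 0 of 13 Lce1 promoters and 0 of 6 Lce3 promoters. The 3 Sprr2 promoters without it were those of Sprr2a1, Sprr2a2 and Sprr2a3, and the first 2 of these are identical over the whole window. Windows end at the annotated start and were compared without gaps, and those of Sprr2a1 and Sprr2a3 were 26.4% identical. Whether these starts match those of the other Sprr2 genes was not tested, so a match further away could be missed. TATAAA was found in 21 of the 46 (45.7%), against 3504 of the 27025 genes. The 2 motifs do not overlap in any printed sequence, and a match describes the letters only.

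The libraries held between 58458102 and 77468584 counts. Levels are given as CPM, the usual depth-scaled count, with edgeR's TMM factors. A floor of 3 counts in a library corresponds on average to 0.0395 CPM in the control group and to 0.0471 CPM in the ligature group. Marker genes of periodontal ligament fibroblasts were abundant in all 4 groups, with a mean log2 CPM between 9.84 and 11.2 per library. With the ligature, 8 of 16 of these genes and 6 of 11 osteoblast genes were lower and 1 of each list was higher (average effect of the ligature, edgeR). Of all genes tested, 10.7% were lower and 10.8% higher in this effect. Skeletal muscle genes had a median log2 fold change of 3.22, with 2 of 15 higher, a share near that of all genes. Their summed CPM was 7.63 to 1462 over all libraries, highest in ligature 2. Salivary gland genes, of which 3 of 8 were lower, had a summed CPM of 1602 in control 1 and at most 47.8 elsewhere. The part of these tissues in the results on the envelope genes was not tested. Keratinocyte genes were present in every library as well: over 12 genes of the basal epithelial layer (among them Krt5, Krt14 and Trp63) the mean log2 CPM per library was 5.55 to 8.71 for the controls and 6.86 to 8.14 for trauma. For the ligature it was 4.81 to 6.42, and 4.41 to 6.15 for both procedures. Epithelial transcripts thus varied between libraries, and fewer epithelial cells and less RNA per cell cannot be told apart in bulk RNA. In 3 libraries, ligature 2 and numbers 2 and 3 of the combined group, expression rose less with transcript length than in the other 13 libraries (rank correlation 0.230, 0.270 and 0.267, against 0.319 to 0.437).

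**Figure D1:**
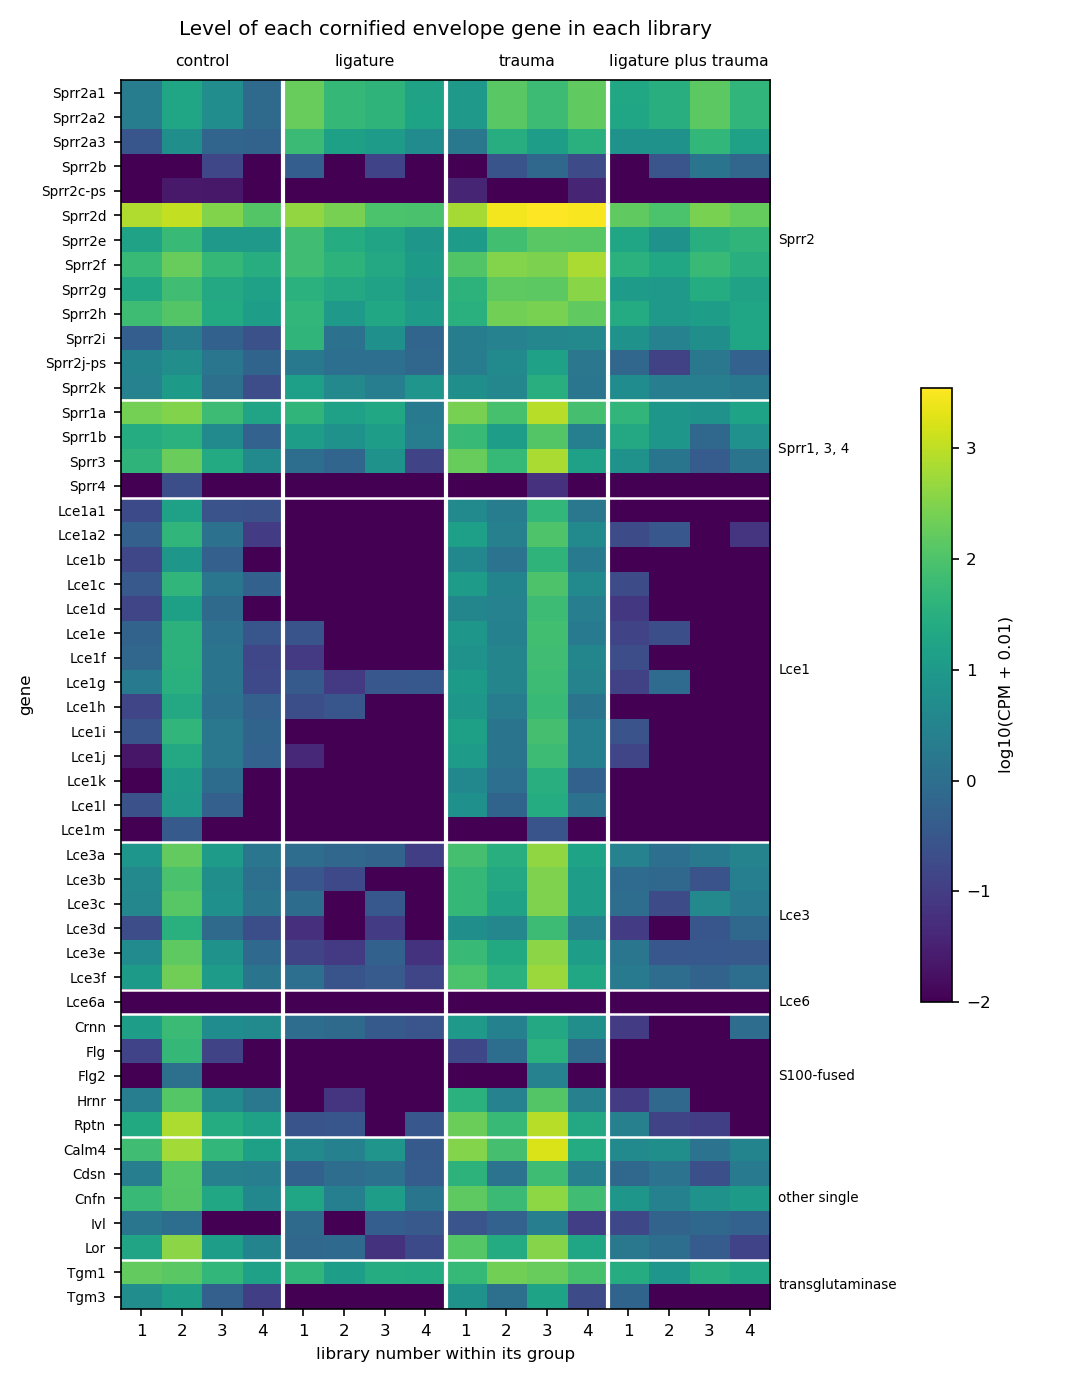
Level of each of the 50 genes (rows, grouped by family) in each of the 16 libraries (columns), as log10(CPM + 0.01), with the darkest cells at 0 counts. In the ligature columns 9 of the 14 Lce1 rows, and 15 of the 50 rows in all, are at 0 counts in all 4 libraries. Sprr2a1 to Sprr2a3 are brighter in ligature 1, 2 and 3 than in any control column, while ligature 4 lies below control 2.

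Many late structural genes were lower with the ligature, while 4 Sprr2 genes were called higher. In ligature against control libraries, 23 of the 45 tested members were lower and 4 were higher (edgeR quasi-likelihood test, Benjamini-Hochberg adjustment over 20953 genes, adjusted p under 0.05). Of all genes tested, 4.78% were lower and 5.88% higher, so the share of members higher lay near that of all genes. Of the 4 higher, 3 are near-identical copies. With voom, a replicate block or only the groups compared, or without control 1, 3 or 4 or ligature 1, 0 members were higher. In 19 of the 45, every ligature library lay below every control library, which held for 9.15% of all genes. The median log2 fold change of the 45 was -5.62, also with the 10 genes at 0 counts set to their bound, against -0.05 for all genes. On average 29 of the 50 members had a count in a ligature library and 43.5 in a control library. The count of 27 called members was 12 without control 2, 14 without ligature 1 and 14 without ligature 2. It was 11 with only the groups compared, 9 in the fit of the 13 libraries not set apart by transcript length, and 1 with voom.

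Loricrin (Lor), the main bulk protein of the mature envelope, was measured at 17.3, 388, 12.7 and 3.22 CPM in the 4 control libraries and at 0.694, 0.781, 0.0550 and 0.166 CPM in the 4 ligature libraries. The groups do not overlap, and control 2 stands far above the other controls. Lor fell by 7.99 ± 1.67 (SE) on the log2 scale (edgeR adjusted p = 0.00683). In trauma libraries it was at 125, 25.7, 350 and 19.5 CPM, within the control range in all 4, and in ligature plus trauma libraries at 1.66, 0.988, 0.395 and 0.123 CPM. All 8 libraries with a ligature thus lay below all 8 without one, and the average ligature effect on Lor was -7.67 ± 1.16 (edgeR adjusted p = 0.000297). Involucrin (Ivl), an early scaffold protein of the envelope, was scarce throughout, at 0 to 2.38 CPM, and its ligature effect was -0.66 with a 95% interval of -2.88 to 1.55.

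**Figure D2:**
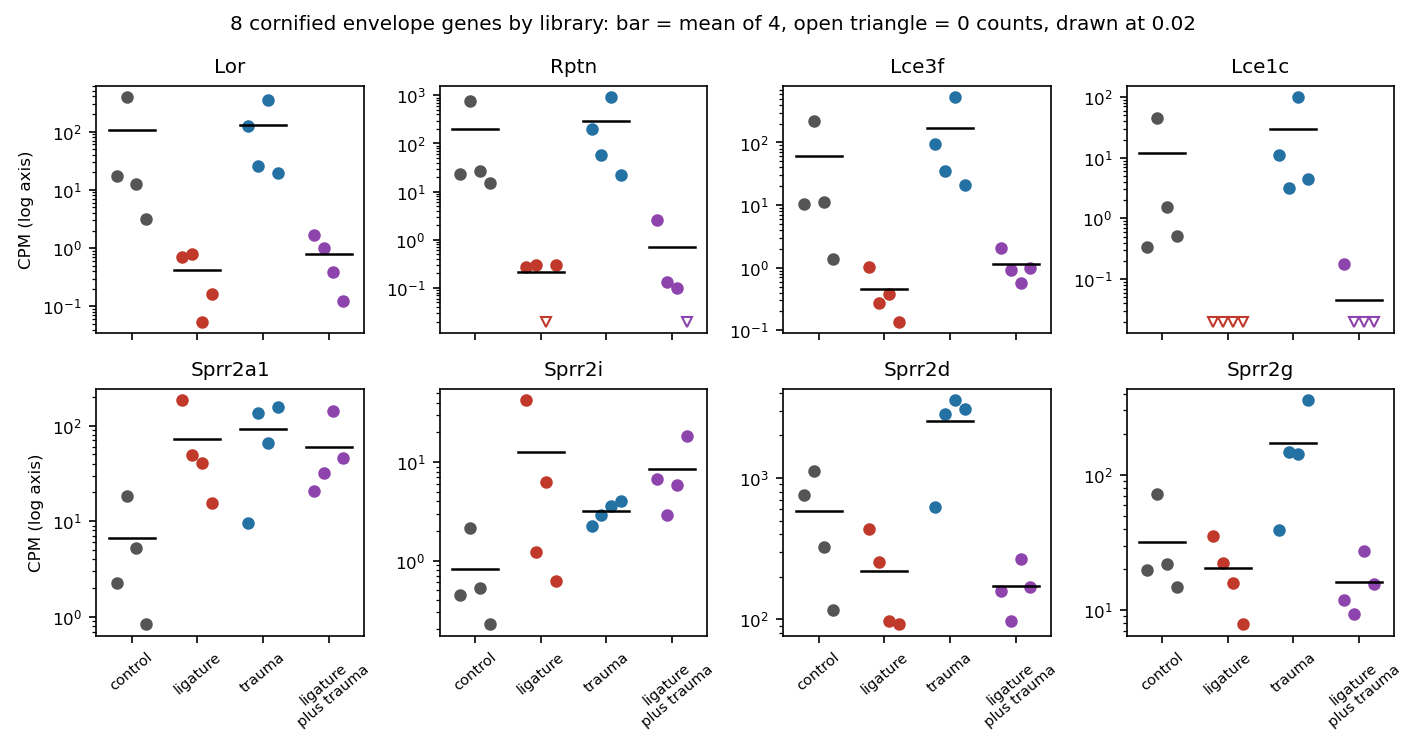
CPM of 8 members in each library on log axes, by group, with a bar at the mean of 4 and open triangles for 0 counts. Lor, Rptn, Lce3f and Lce1c are low in both groups with a ligature, Sprr2a1 is lowest in the controls (at most 18.5 CPM), and Sprr2d is highest in trauma 2, 3 and 4.

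The S100-fused genes, whose large repeat proteins fill and coat the cornifying cell, were lower in 3 of the 4 tested (Rptn, Crnn and Hrnr). Repetin (Rptn) was at 23.5, 749, 27.2 and 15.1 CPM in control and at 0.268, 0.293, 0 and 0.304 CPM in ligature libraries. It fell by 9.89 ± 2.06 on the log2 scale (edgeR adjusted p = 0.00678), and the groups were apart by a wide margin. Cornulin (Crnn), a protein of the oral and esophageal lining, went from 4.51 to 61.1 CPM in control to 0.276 to 0.930 CPM in ligature libraries (-5.12 ± 1.25, edgeR adjusted p = 0.0168). That call was lost without control 2. Hornerin (Hrnr) had 1.67 to 123 CPM in control libraries and 3 counts in all among the ligature libraries (called lower, edgeR adjusted p = 0.00742). Filaggrin (Flg) had 0 counts in all 8 libraries with a ligature, but among the controls only control 2 had an appreciable level (48.7 CPM, the others 0 to 0.129), and Flg was not called in ligature against control (edgeR adjusted p = 0.0804).

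The LCE genes encode small late-stage envelope proteins. Of the 50-base stretches of a gene's transcripts, 12.1% to 49.3% for Lce3 and 9.12% to 27.1% for tested Lce1 genes also occur in another gene. How such reads were counted is not stated, so these genes may not be fully separate measurements. All 6 Lce3 genes were lower with the ligature, in every case with no overlap between the 4 ligature and the 4 control libraries. Lce3f was the most abundant of them, at 10.3, 222, 11.2 and 1.39 CPM in control and 1.04, 0.273, 0.385 and 0.138 CPM in ligature libraries. It fell by 7.06 ± 1.54 on the log2 scale (edgeR adjusted p = 0.00871), and the 6 changes ranged from -7.95 to -6.33. Lce3c and Lce3d were no longer called without control 2 or without several single ligature libraries, whereas the calls of the other 4 stood whichever library was left out. Among the 13 tested Lce1 genes, 9 were lower. Of the 14 Lce1 genes, 9 had 0 counts in all 4 ligature libraries. Lce1c, at 0.338, 45.3, 1.53 and 0.520 CPM in control libraries, was at least 253-fold lower, a bound set by 3 counts per library. Its mean rests on control 2, although the call did not depend on any 1 library. Lce1a2 and Lce1i gave like bounds, at least 253-fold and at least 248-fold lower, and the smallest bound among the Lce1 genes called was that of Lce1l, at least 57.9-fold lower. Without control 2, 8 of the 9 Lce1 calls were lost, and that of Lce1l was also lost without any 1 of 13 other libraries. Computed without control 2, the bounds were at least 16.9-fold for Lce1c, 12.8-fold for Lce1a2, 18.0-fold for Lce1i and 5.17-fold for Lce1l. Lce genes as a whole made up 2.25% to 20.2% of the summed CPM of the 50 members in control libraries, and 0.295% to 0.599% in ligature libraries.

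The 2 transglutaminases, the enzymes that cross-link the envelope, differed in how far they moved. Tgm3 was at 5.32, 12.5, 0.502 and 0.0983 CPM in control libraries and at 0 counts in all 4 ligature libraries, at least 97.6-fold lower (edgeR adjusted p = 0.0260). This call was lost without control 2, where the bound was 41.8-fold, or any 1 of the ligature libraries. Tgm1, the membrane-bound enzyme, was at 166, 136, 47.1 and 15.3 CPM in control and at 45.5, 12.8, 27.5 and 26.0 CPM in ligature libraries. These ranges overlap, and its change of -1.70 ± 0.64 was not called (edgeR adjusted p = 0.10). Averaged over both ligature comparisons, Tgm1 fell by 2.21 ± 0.46 (edgeR adjusted p = 0.00322).

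Corneodesmosin (Cdsn), which holds cornified cells together, fell by 5.396 ± 1.51 on the log2 scale (edgeR adjusted p = 0.0322), from 2.30 to 120 CPM in control to 0.400 to 1.155 CPM in ligature libraries. Without control 2 or any 1 of the 4 ligature libraries it was no longer called. Calm4, a calmodulin-like protein of differentiated keratinocytes, was at 70.8, 590, 48.0 and 14.3 CPM in control and at 4.48, 2.77, 7.71 and 0.359 CPM in ligature libraries, a change of -5.56 ± 1.40 (edgeR adjusted p = 0.0193) that was lost without control 2, ligature 1 or ligature 2. Cornifelin (Cnfn), another envelope component, had overlapping ranges of 3.81 to 116 and 1.44 to 18.5 CPM and was not called (-2.49 ± 0.94, edgeR adjusted p = 0.0992).

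The SPRR proteins are short, proline-rich cross-bridges of the envelope. Sprr3 fell (-4.92 ± 1.46, edgeR adjusted p = 0.0425), from 4.45 to 192 CPM in control to 0.124 to 6.81 CPM in ligature libraries. This call rested on single libraries, since it was lost without control 1, 2 or 3, ligature 1, 2 or 4, trauma 1, or ligature plus trauma 2. Sprr1a, at 17.4 to 308 CPM in control and 2.07 to 43.1 CPM in ligature libraries, was not called (-2.97 ± 1.03, edgeR adjusted p = 0.0738), nor was Sprr1b (-1.001 ± 1.13).

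Sprr2a1 and Sprr2i were among the 4 members called higher. Sprr2a1 was at 2.27, 18.5, 5.19 and 0.8288 CPM in control libraries and at 185, 49.6, 40.8 and 15.5 CPM in ligature libraries, where only ligature 4 lay below the highest control. It rose by 3.44 ± 1.03 on the log2 scale (edgeR adjusted p = 0.0448). Its near-copies Sprr2a2 and Sprr2a3 rose by 3.44 ± 1.03 and 3.67 ± 1.12 (edgeR adjusted p = 0.0444 and 0.0476). Sprr2a1 and Sprr2a2 can hardly be told apart by short reads, and Sprr2a3 only in part. Of the 50-base stretches of their transcripts, 96.3%, 96.5% and 61.1% also occur in another gene. Summed into 1 gene, an alternative added after the data were seen, the copies rose by 3.47 ± 1.04 (edgeR adjusted p = 0.0439). The call for Sprr2a1 lay close to the threshold. It was kept in 8 of 25 alternative settings, with log2 fold changes of 2.40 to 4.71 and adjusted p up to 0.144, and was lost without control 1, 3 or 4, ligature 1, 2 or 3, trauma 2, 3 or 4, or ligature plus trauma 2 or 4.

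Sprr2i was at 0.447, 2.12, 0.528 and 0.225 CPM in control and at 42.6, 1.23, 6.24 and 0.621 CPM in ligature libraries. It rose by 3.93 ± 1.11 (edgeR adjusted p = 0.0334), with overlapping ranges. Over 25 alternatives its change ranged from 1.70 to 5.15. It was not called with voom, a replicate block or only the groups compared, or without control 1, 3 or 4 or ligature 1. The abundant genes of the family did not follow it. Sprr2d was at 760, 1121, 323 and 116 CPM in control and at 436, 255, 97.2 and 92.0 CPM in ligature libraries (-1.40 ± 0.66, edgeR adjusted p = 0.187, not called). Sprr2e (0.46 ± 0.77), Sprr2f (-1.13 ± 0.63), Sprr2g (-0.65 ± 0.62) and Sprr2h (-1.31 ± 0.69) were not called either.

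The make-up of the envelope transcripts shifted accordingly. Sprr2 genes supplied 28.6% to 66.6% of the summed CPM of the 50 members in control and 75.2% to 91.3% in ligature libraries, with no overlap. Their share was 70.4% to 93.3% with both procedures and 31.2% to 91.5% with trauma alone, so a high share was not limited to the ligature. Within the Sprr2 family, the 3 Sprr2a copies supplied 0.523% to 2.66% in control and 20.7% to 37.4% in ligature libraries. The Sprr2a copies supplied 15.3% to 44.8% where both procedures were combined, and 2.43% to 7.70% with trauma alone. Per kilobase of exon, Sprr2d was the most abundant member in all 4 groups, with a mean of 852 CPM per kb in control, 323 with the ligature, 3711 with trauma and 254 with both. In the controls it was followed by Calm4 and Sprr1a (both 197) and Sprr2f (127), and these neighbours do not differ beyond their spread.

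**Figure D3:**
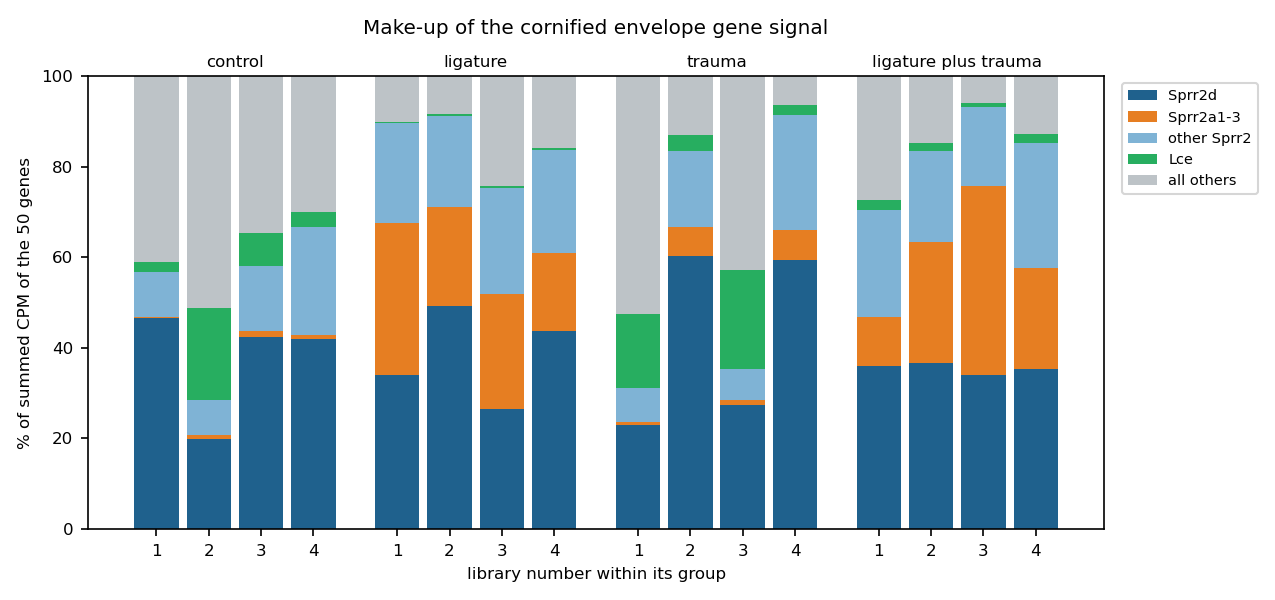
Share of the summed CPM of the 50 genes (y axis, percent) supplied by Sprr2d, the 3 Sprr2a copies, the other Sprr2 genes, the Lce genes and all others, in each library. The Sprr2a share is visible as a broad band only in the 8 libraries with a ligature, and in trauma 2 and 4 as a narrow one, and the Lce band is widest in control 2, trauma 1 and trauma 3.

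Trauma alone changed no member past the threshold, and of all genes tested 0.00477% were called. Without adjustment, 8 of the 45 members and 1450 of all 20953 genes had p under 0.05. The 8 were all Sprr2 genes and all higher. Without control 2 the count of members was 37, so it was then not limited to Sprr2 genes. Sprr2d was at 627, 2830, 3551 and 3100 CPM in trauma libraries, so that 3 of the 4 lay above the highest control (1121 CPM) and trauma 1 lay within the control range. Its log2 fold change was 2.12 ± 0.68 (edgeR adjusted p = 0.606). Sprr2g was at 38.8, 147, 143 and 357 CPM in trauma and 19.8, 71.9, 21.95 and 14.7 CPM in control libraries, a change of 2.42 ± 0.65 (edgeR adjusted p = 0.499). Sprr2a1, at 9.56, 137, 65.4 and 158 CPM in trauma libraries, had a log2 fold change of 3.79 ± 1.05 (edgeR adjusted p = 0.499). DESeq2 called 4 members in this comparison, and 0.546% of all genes: Sprr2g (adjusted p = 0.0151), Sprr2a1 and Sprr2a2 (both 0.0345) and Sprr2f (0.0449).

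Sprr2i, at 2.26 to 4.07 CPM, was the 1 member whose 4 trauma libraries all lay above the 4 controls, an arrangement seen upward in 3.65% of all genes. The median log2 fold change of the 45 members was 1.55 in trauma against control, beside 0.01 for all genes, and 42 of them were positive. Trauma 3 had the highest level of Rptn, Calm4, Sprr1a, Sprr3 and Cnfn among all 16 libraries (914, 1701, 897, 715 and 415 CPM). Of the 12 basal epithelial genes 0 were called in this comparison, with a median log2 fold change of -0.15.

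With ligature and trauma together, 22 of the 45 members were lower than in the controls and 0 were higher, against 5.62% and 6.83% of all genes. At an unadjusted p under 0.05 there were 38 members, beside 6445 of all 20953 genes. The 11 members whose ranges were apart and lower compare with 10.4% of all genes. Lor fell by 7.05 ± 1.59 (edgeR adjusted p = 0.0114), Rptn by 8.15 ± 1.89 (0.0132) and Crnn by 6.29 ± 1.33 (0.00840). Leaving out any 1 library kept these 3 calls, but in the fit of 13 libraries, with voom and with the basal epithelial level as a covariate 0 members were called. Rptn had 2.55, 0.1305, 0.0987 and 0 CPM in these libraries, and Crnn 0.0828, 0, 0 and 0.952 CPM. Tgm1 fell by 2.14 ± 0.65 (edgeR adjusted p = 0.0432), and this call was lost without any 1 of 10 libraries: control 1 or 2, ligature 3 or 4, trauma 3 or 4, or any of the 4 with both procedures. Tgm3, at 0.5935 CPM in ligature plus trauma 1 and at 0 in the other 3, was not called (edgeR adjusted p = 0.0979).

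In this group the Sprr2a copies and Sprr2i lay above all 4 controls in every library, but none of them was called. Sprr2a1 was at 20.6, 31.8, 141 and 46.1 CPM, above all 4 control libraries, with a log2 fold change of 3.16 ± 1.02 that just missed the threshold (edgeR adjusted p = 0.0534). Sprr2i was at 6.76, 2.89, 5.86 and 18.6 CPM (3.36 ± 1.08, edgeR adjusted p = 0.0524). Of the 45 tested, Sprr2a1, Sprr2a2, Sprr2a3 and Sprr2i were the 4 members whose ranges were apart and higher. This arrangement was found in 10.8% of all genes, so the members' share lay near that of all genes, and 3 of the 4 are near-copies. The number of members called higher was 4 with DESeq2 and with at least 50 counts in 4 libraries. It was also 4 without control 2, ligature 1 or ligature 2, and 0 to 3 in the other alternatives. In the fits with 4, 6.07% to 20.3% of all genes were called in either direction. Without control 2, 7 members were called, 3 lower and 4 higher, and 3 of the 22 calls were kept. The 22 calls fell to 5, 3 and 10 without ligature plus trauma 2, 3 and 4. The comparisons of the 3 treated groups with control share the same 4 control libraries.

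Setting the combined procedure against trauma alone showed what a ligature added to trauma. In ligature plus trauma against trauma, 29 of the 45 members were lower and 0 were higher, against 3.27% of all genes lower. In 33 members every library with both procedures lay below every trauma library, which held for 7.31% of all genes. Here the abundant Sprr2 genes were among those that fell. Sprr2d was at 160, 97.3, 266 and 169 CPM, below the lowest trauma library (627 CPM), and fell by 3.87 ± 0.73 (edgeR adjusted p = 0.00739). The log2 fold change was -3.41 ± 0.68 for Sprr2g, -3.31 ± 0.68 for Sprr2f and -3.35 ± 0.74 for Sprr2h (edgeR adjusted p = 0.00972, 0.0112 and 0.0164). The calls of Sprr2d, Sprr2f and Sprr2g stood whichever library was left out, and that of Sprr2h was lost without ligature plus trauma 2 or 3. In the fit of 13 libraries and with the basal covariate 0 members were called. Sprr1a (-4.10 ± 1.08), Cnfn (-4.57 ± 1.03) and Tgm1 (-2.72 ± 0.67) were lower too (edgeR adjusted p = 0.0356, 0.0176 and 0.0260), and each of these 3 calls was lost without trauma 3 or without ligature plus trauma 2 or 3.

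The Sprr2a copies were not called in this comparison. Sprr2a1 averaged 59.9 ± 55.2 CPM (SD, n = 4) with both procedures and 92.4 ± 67.9 CPM (SD, n = 4) with trauma alone, and the 95% interval of its log2 fold change ran from -2.62 to 1.37. The count of 29 was 10 without trauma 3 and 17, 7, 5 and 11 without ligature plus trauma 1, 2, 3 and 4.

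Between the 2 ligature groups no member was called, nor was any other gene (0% of 20953). At an unadjusted p under 0.05 there was 1 member, Lce3b (1.07 against 0.118 CPM), beside 734 of the 20953 genes. DESeq2 also called 0 members, with 4 at an unadjusted p under 0.05. The 6 Lce3 genes all had positive estimates, from 1.31 to 3.24, but they share sequence and may not be fully separate measurements. The interval for Sprr2d, -1.73 to 1.03, allows a change in either direction.

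Averaged over the comparisons with and without trauma (8 libraries against 8), the ligature lowered 36 of the 45 members and raised 1, Sprr2i, against 10.7% and 10.8% of all genes. All 13 tested Lce1 genes, all 6 Lce3 genes, all 4 tested S100-fused genes and both transglutaminases fell. Of the 12 tested Sprr2 genes, 5 fell (Sprr2d, Sprr2f, Sprr2g, Sprr2h and Sprr2j-ps), 1 rose and 6 were not called. Sprr2d fell by 2.63 ± 0.49 (edgeR adjusted p = 0.00139), and Sprr2i rose by 2.67 ± 0.74 (0.0175), a call lost without ligature 1, with a replicate block and with voom. That of Sprr2j-ps was lost without trauma 3. The median log2 fold change of the 45 was -6.29, against -0.05 for all genes. Leaving out any 1 library kept 36 or 37 of the 37 calls, and without control 2 there were 40 calls in all. With voom 14 were called.

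Whether the ligature acted differently with and without trauma was tested as an interaction, and no member and no other gene was called (0%). DESeq2 called 0 members as well. At an unadjusted p under 0.05 there were 6 members by edgeR, all Sprr2 genes and all negative, and 11 by DESeq2. By edgeR, 1032 of all 20953 genes had such a p. The 6 became 17 without control 2 and 3 without ligature 1. Sprr2g had an interaction of -2.76 ± 0.89 (edgeR adjusted p = 0.955) and Sprr2d one of -2.47 ± 0.93. So the difference in Sprr2d between the 2 ligature comparisons (-1.40 against -3.87) did not pass the test.

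**Figure D4:**
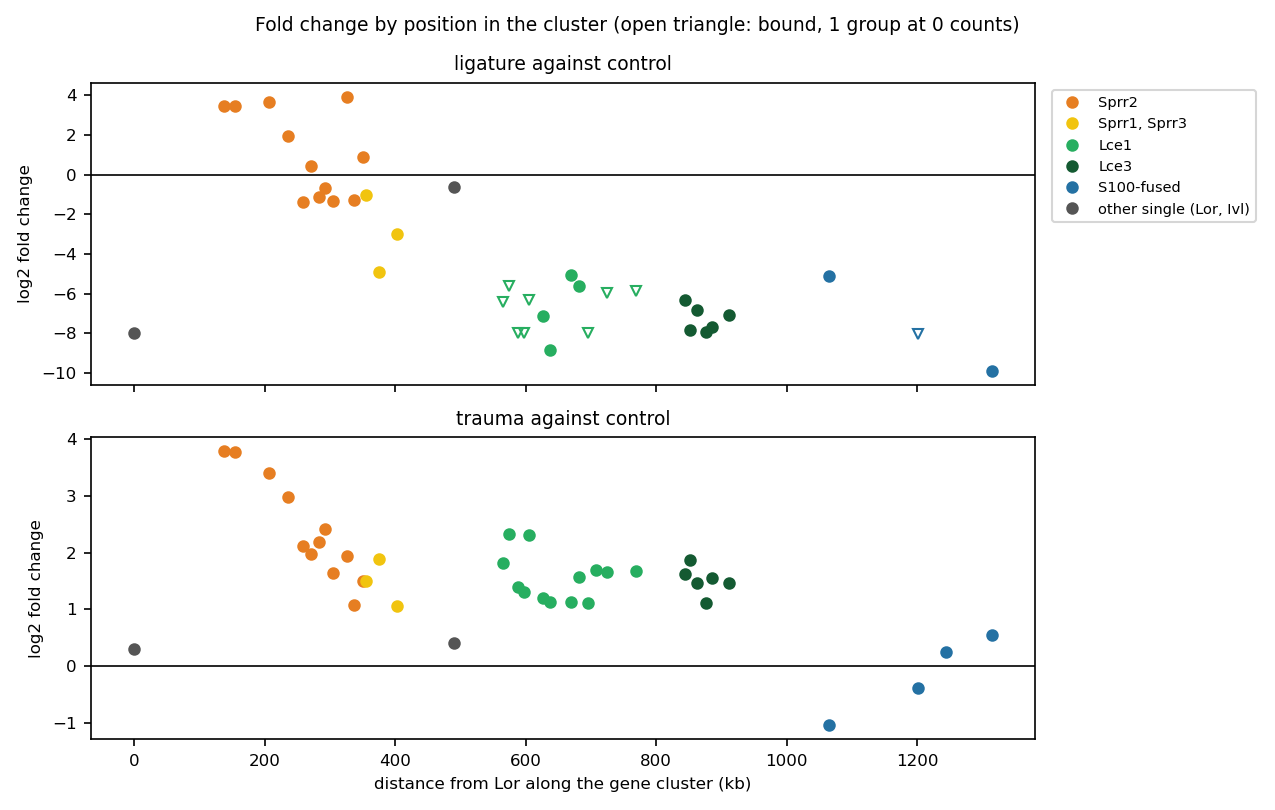
Log2 fold change of the tested chromosome 3 members against their distance from Lor in kb, for ligature (top) and trauma (bottom) against control, with open triangles for bounds where a group had 0 counts. Hrnr and Lce1j, with 1 to 3 counts in the ligature group, are left out at the top. The Sprr2 block lies between -1.40 and 3.93 at the top while the Lce blocks lie at or below -5.07, and at the bottom the Lce blocks lie between 1.11 and 2.33.

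The other genes of the cornifying epithelium moved largely with the set. The counts below stand beside 10.7% of all genes lower and 10.8% higher in the average ligature effect. All 11 tested suprabasal keratins fell in the average ligature effect (median log2 fold change -6.92), among them Krt13 (-6.92 ± 1.06) and Krt4 (-8.81 ± 1.54), the keratin pair of oral and esophageal lining. Of 13 desmosome genes 12 fell (median -2.50), led by Dsg2 (-3.48 ± 0.44) and Dsg1a (-7.28 ± 1.09). Of 14 other proteins of the upper layers 13 fell (median -3.51), including Crct1 (-3.77 ± 0.63), and of 14 genes of the lipid envelope 10 fell and 1 rose, with Cers3, a ceramide synthase of the skin barrier, at -2.62 ± 0.54. Among 21 regulators of epidermal differentiation 13 fell, led by Klf5 (-2.90 ± 0.36). The scaffold genes were divided: Dsp, Ppl and Evpl, the plakins onto which the envelope is built, were among 4 of 9 that fell (-2.84 ± 0.44, -3.50 ± 0.58 and -2.44 ± 0.59), while 2 rose, among them the protease inhibitor Cstb, by 1.27 ± 0.30.

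The basal epithelial genes fell as well, but by less. In the average ligature effect 10 of 12 were lower (median log2 fold change -1.70), and 10 of 12 pan-epithelial genes (-2.14), against 10.7% of all genes. The summed CPM of the basal list was 2012 to 12976 for the controls and 5599 to 18223 for trauma, against 2361 to 3560 for the ligature and 1242 to 3195 for both procedures. Krt15 was the lowest of the 12 with a ligature, at a mean of 0.1005 CPM against 23.6 CPM in the 8 libraries without a ligature. Over 10 leukocyte genes, 5 were higher and 1 lower in the average ligature effect, against 10.8% and 10.7% of all genes. Their summed CPM was 1355 to 2207 in control and 2506 to 4149 in ligature libraries. Their part in the results on the envelope genes was not tested.

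Set against the basal level of the same library, the family means moved in different directions with the ligature, but not all ranges were apart. Each tested gene of a family counted alike, so the near-identical Sprr2a copies weigh more than 1 gene. The mean log2 CPM of the 12 tested Sprr2 genes minus that of the basal list averaged -5.03 ± 1.096 (SD, n = 4) in the controls, -2.29 ± 1.04 with the ligature, -2.74 ± 1.17 with trauma and -1.70 ± 1.198 with both. The 4 control values (-6.63 to -4.17) lay below those of both groups with a ligature and overlapped those of trauma (-4.32 to -1.51). For Lce3 the same difference was -4.59 ± 2.46 in the controls, -8.88 ± 1.42 with the ligature, -2.25 ± 1.74 with trauma and -5.61 ± 0.86 with both. The Lce3 control values (-7.00 to -1.27) lay above those of the ligature (-10.99 to -7.90) but spanned all those of both procedures (-6.26 to -4.44). For Lce1 the difference was -7.63 ± 3.20, -11.88 ± 0.74, -4.85 ± 2.06 and -10.91 ± 0.81 in the same order, at log2 levels that for the ligature groups lie near the offset of 0.5 counts. The Lce1 control values (-11.09 to -3.59) overlapped those of both groups with a ligature.

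With the basal level of each library as a covariate in the edgeR fit, 2 of the 45 members passed in the average ligature effect, beside 3.79% of all genes: Rptn fell by 5.27 ± 1.26 (adjusted p = 0.0292) and Sprr2i rose by 4.45 ± 1.19 (0.0497). In ligature against control 3 passed, beside 5.04% of all genes: Rptn (-5.92 ± 1.57, edgeR adjusted p = 0.0406), Sprr2i (5.15 ± 1.21, 0.0233) and Sprr2k (4.10 ± 1.002, 0.0281). In both comparisons of the group with both procedures 0 passed, with 10 and 9 at an unadjusted p under 0.05, beside 1.52% of all genes against control and 0.2% against trauma. The members' shares thus lay near those of all genes in the first 2 fits. Lor remained negative in the average effect at -4.03 ± 1.63 (edgeR adjusted p = 0.213), and Sprr2d at -1.01 ± 0.70. Tgm1 changed sign, from -2.21 to 0.28 ± 0.37. Group and basal level are confounded in part, so a group difference and a difference in epithelial content cannot be fully told apart.

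**Figure D5:**
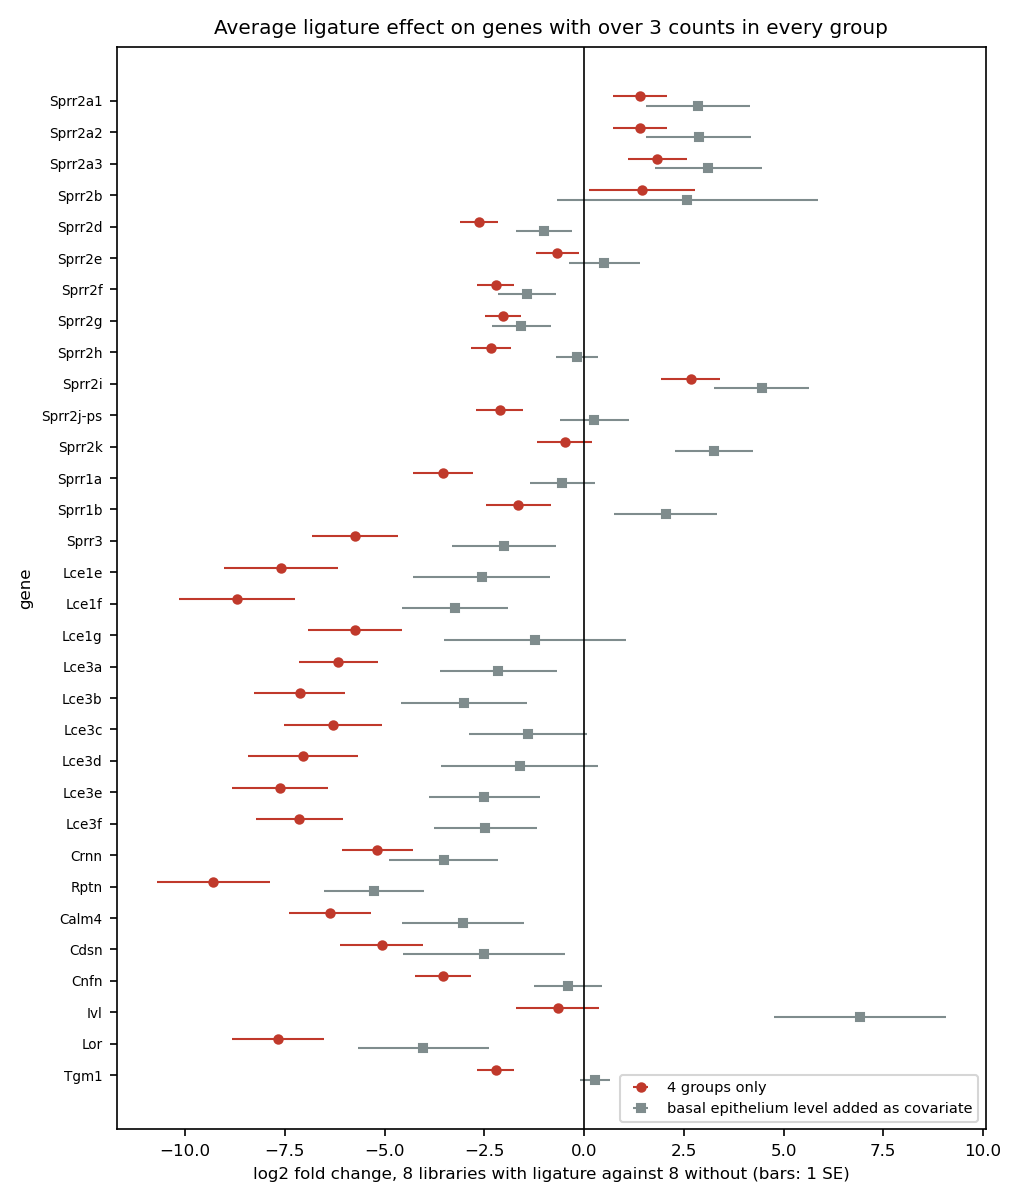
Average ligature effect (log2 fold change, 8 libraries against 8, bars 1 SE) for each tested member with over 3 counts in every group, with the 4 groups only (circles) and with the basal epithelial level added (squares). Most estimates of Lce and single genes move towards 0 with the covariate, Rptn moves from -9.29 to -5.27, and Ivl, at 6.91 ± 2.16, is not called (edgeR adjusted p = 0.0939).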

How the data were processed

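Poly(A) RNA of 16 periodontal ligament samples was sequenced. The authors deposited raw read counts per gene for each library. Per the submitters' processing notes, the build was GRCm39, and the software used included HISAT2 2.2.1 and StringTie 2.1.7 as well as DESeq2 1.32.0, Trimmomatic 0.39 and FastQC 0.11.9, listed without roles. For the counting tool, strand setting and annotation, nothing is stated in the sources used here, so antisense or copied genes cannot be separated. Ensembl identifiers were matched to GENCODE M21 symbols (52083 of 55359), and exon lengths and shared 50-base stretches come from that annotation. The identifiers without a symbol hold 0.205% of the counts.

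Counts were tested with edgeR 4.0.16 (R 4.3.3) using TMM scaling, filterByExpr with a minimum count of 10 by group, and the quasi-likelihood test on 1 fit of all 16 libraries (12 residual degrees of freedom), with Benjamini-Hochberg adjustment over 20953 genes and a threshold of 0.05. The average ligature effect is the mean of the 2 ligature contrasts and the interaction their difference. Log2 CPM levels use an offset of 0.5 counts. Where a group had 0 counts in all libraries, a fold bound was set with 3 counts per library. Such floors cover counting error only. The script was tested on simulated data. Alternatives were DESeq2 1.42.0, DESeq2 size factors, no filter, at least 50 counts in 4 libraries, limma 3.58.1 voom with sample weights, a replicate block, only the groups compared, 13 libraries, a basal epithelium covariate and leaving out each library.

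The members and gene lists were chosen with earlier results of these data known. Named were each single-copy member, up to 4 of each family by level, every member called, and up to 4 genes per list by p in the average ligature effect.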

Additional observations from a re-analysis of the deposited data

Results flagged for a closer look

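In each group of 4 libraries, a member was looked at again when its highest or lowest library stood apart in log2 CPM. The offset was that used for log2 CPM levels above. The gap relative to the group's range, both on this scale, had to exceed Dixon's 95% critical value. This held in 18 of 164 groups examined. Chance flags about 1 in 20 groups where values are independent and normally spread. That does not hold for libraries tied at 0 counts or for related genes, so the 18 cannot be set against this rate. Of the flags, 7 fell in ligature plus trauma 1, mostly against 0 counts in the rest of its group, and 3 in control 2. A value that is extreme in CPM can go unflagged on the log2 scale, as with Lor in control 2 (388 CPM, others 3.22 to 17.3).

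In ligature plus trauma 1 the high values were Lce1c at 0.1794 CPM, Lce1d at 0.06901 CPM, Lce1f at 0.1932 CPM, Lce1i at 0.2484 CPM, Lce1j at 0.138 CPM and Tgm3 at 0.5935 CPM, all against 0 in the other 3 libraries. Lce3e was at 1.491 CPM there, against 0.317 to 0.338 CPM in the others. In control 2 the high values were Cdsn at 119.7 CPM (others 2.30 to 2.63), Lce1a1 at 15.21 CPM (others 0.169 to 0.257) and Rptn at 749.1 CPM (others 15.1 to 27.2).

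Trauma 3 stood out with Lce1d at 65.35 CPM, the others being at 2.33 to 3.60 CPM. Trauma 1 was low in Sprr2d, at 626.8 CPM against 2830 to 3551 CPM. Among the ligature libraries, ligature 1 alone had counts of Lce1e (0.268 CPM) and Lce1f (0.07881 CPM), and ligature 2 alone of Hrnr (0.05856 CPM). Ligature 2 was lowest in Lce1g at 0.07807 CPM (others 0.316 to 0.363), and ligature 3 in Rptn at 0 CPM (others 0.268 to 0.304). Control 3 alone among the controls had counts of Sprr2b, at 0.1416 CPM.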

How the results depend on the processing

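Member calls were recomputed under 25 alternatives (24 for the average effect and the interaction). In ligature against control, 27 members were called. The number was 17 with a replicate block, 11 with only the groups compared, 9 with 13 libraries (without ligature 2 and ligature plus trauma 2 and 3), 3 with the basal covariate, 1 with voom, and 12 to 26 with 1 library left out. In ligature plus trauma against control, 22 were called, 7 with a replicate block, 0 with 13 libraries, the basal covariate or voom, and 3 to 29 with 1 library left out. In ligature plus trauma against trauma, 29 were called, 5 with voom, 0 with 13 libraries or the basal covariate, and 5 to 34 with 1 library left out. The average ligature effect, with 37, gave 14 with voom, 2 with the basal covariate and 36 to 40 with 1 library left out. DESeq2 called 4 in trauma against control, where every other alternative gave 0. In ligature plus trauma against ligature and in the interaction, 0 were called throughout.

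Among members called, the estimates that changed sign did so with the basal covariate. These were Lce1g (0.21), Lce3a (0.11), Lce3b (0.33) and Tgm1 (0.76) in ligature plus trauma against control, Tgm1 (0.10) against trauma, and Sprr2j-ps (0.25) and Tgm1 (0.28) in the average effect. Of members not called, Ivl moved from -0.66 to 6.91 in the average effect. With the replicate block 0 members were higher in ligature against control and in the average effect, so the Sprr2i and Sprr2a calls were lost. Leaving out libraries reduces the samples tested; otherwise the cause was not tested. The replicate numbers gave little sign of pairing: 2 of 24 same-numbered pairs correlated above 0.1 (-0.110 to 0.170), and 4 of 16 libraries correlated best with their own number. With 4 libraries per group, this check cannot exclude a pairing. Depth limits the Lce1, Flg and Tgm3 results, which rest on groups at or near 0 counts.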

Other observations

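Between 38 and 48 members had at least 1 count in the control libraries and between 45 and 48 in the trauma libraries. The ligature libraries had 26 to 34, and those with both procedures 28 to 38. Flg, Flg2, Lce1a1, Lce1b, Lce1k, Lce1l, Lce1m, Lce6a, Sprr2c-ps and Sprr4 had 0 counts in all 8 libraries with a ligature.

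Control libraries differed widely among themselves. The summed CPM of the 50 members was 1632, 5620, 762 and 276 in the 4 controls, and 2732, 4694, 12975 and 5223 in the 4 trauma libraries. In the ligature libraries it was 1279, 518, 367 and 211, and in those with both procedures 442, 265, 784 and 477. Odam, a protein of the junctional epithelium that seals the gum to the tooth, averaged 421 CPM in the 8 libraries with a ligature and 4508 CPM in the 8 without (-3.37 ± 0.34, edgeR adjusted p = 1.66e-05). Odam is no member of the set but belongs to a list of 8 tested genes of junctional epithelium and epithelial rests. Of these, 3 were lower (median log2 fold change -0.86), against 10.7% of all genes.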
